A study of Mus musculus with 24 samples.

Results

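The genes described here are those that set how pyruvate enters mitochondria and becomes acetyl-CoA in mouse liver: the 4 pyruvate dehydrogenase kinases (Pdk1, Pdk2, Pdk3 and Pdk4), the phosphatase subunit Pdp2, the enzyme subunits Pdha1, Pdhb and Dlat, and the pyruvate carrier subunits Mpc1 and Mpc2. They were taken by gene name, whatever their values, and all 10 were found, each as 1 of the 55536 entries of the expression table. RNA had been sequenced from livers of wild-type Balb/c mice aged 6 weeks, in 24 libraries. There were 8 libraries per state: healthy (Con), acute pancreatitis (AP, in which the pancreas is inflamed) and severe acute pancreatitis (SAP, which can damage distant organs). The sources used here do not give how pancreatitis was brought about or how long before sampling. Nor do the labels say whether every library came from its own mouse, so the spread behind each p-value is that between libraries. Libraries are named here by group and title number, and a liver counted below means a library.

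Pyruvate made in the cytosol crosses the inner mitochondrial membrane through a carrier formed by MPC1 and MPC2, and the pyruvate dehydrogenase complex then turns it irreversibly into acetyl-CoA. The kinases switch the complex off by phosphorylating its E1 alpha subunit and the phosphatases switch it on again, so the balance between them sets whether pyruvate carbon is burned or kept for glucose. In liver PDK2 is the usual main kinase, and PDK4 is known for its rise in fasting, when fatty acids, PPAR-alpha, FOXO factors and glucocorticoids act on its gene.

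Sequence just before the start of a gene is where much of its control is read, and it is shown for the 3 genes whose group means lay furthest apart. Each line holds the 250 bases before the RefSeq start, 5′ to 3′ on the coding strand, build GRCm38.p6, with capitals for matches to the motifs searched.
Pdk4 (chr6:5496279-5496528, minus strand): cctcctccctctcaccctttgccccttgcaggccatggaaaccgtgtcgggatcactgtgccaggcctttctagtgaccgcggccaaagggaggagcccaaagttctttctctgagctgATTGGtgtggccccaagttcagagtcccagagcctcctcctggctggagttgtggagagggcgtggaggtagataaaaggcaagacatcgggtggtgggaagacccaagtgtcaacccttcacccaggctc
Pdk2 (chr11:95041372-95041621, minus strand): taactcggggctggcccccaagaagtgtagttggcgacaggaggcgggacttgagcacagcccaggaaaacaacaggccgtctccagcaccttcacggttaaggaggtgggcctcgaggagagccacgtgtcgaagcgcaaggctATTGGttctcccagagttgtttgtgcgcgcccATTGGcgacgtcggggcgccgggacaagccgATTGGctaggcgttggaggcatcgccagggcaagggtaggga
Pdp2 (chr8:104591222-104591471, plus strand): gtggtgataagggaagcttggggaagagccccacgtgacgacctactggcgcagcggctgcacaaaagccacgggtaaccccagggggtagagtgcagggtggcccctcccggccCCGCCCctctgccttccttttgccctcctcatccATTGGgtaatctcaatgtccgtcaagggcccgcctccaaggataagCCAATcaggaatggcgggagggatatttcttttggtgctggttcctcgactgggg

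The RefSeq table held 13 such windows for the 10 genes, and for a gene with several the one nearest the start of its principal GENCODE transcript was used. The capitals in the Pdk4 window are a single CCAAT box, read as ATTGG, with its first base 131 bases before the start. Pdk2 had the same letters at 105, 73 and 42 bases before the start. Pdp2 had ATTGG at 101 bases, CCAAT at 55 bases and a GC box (CCGCCC) at 135 bases before the start. The CCAAT box occurred in 7 of the 10 genes, against 33.8% of all 32851 RefSeq windows of this length, and the GC box (GGGCGG) also in 7 of 10, against 32.7%. The windows of Pdk2 and Pdp2 held 19 and 11 CpG dinucleotides, that of Pdk4 held 6, and the median of all windows was 6.

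No match was found in any of the 10 windows to the TATA box (TATAAA, in 12.4% of all windows), the FOXO core (TGTTTAC, 3.17%), the estrogen-related receptor site (TCAAGGTCA, 0.387%), the cAMP response element (TGACGTCA, 1.55%), the glucocorticoid receptor palindrome (0.387%), the PPAR direct repeat (0.0335%) or the NF-kB consensus (0.140%). The C/EBP core (TTGCNNAA, 9.56%) matched in Mpc2 and Pdhb. Both strands were searched, no match overlapped another in the sequences shown, and a missing match says only that these letters are not in this window.

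Expression was given as TPM, the share of each transcript in a fixed total after scaling for its length, so genes can be set side by side. TPM keeps no record of depth, which is unknown. Libraries summed to between 986423 and 993642 TPM and listed between 17140 and 18565 genes above 0. Transcripts of the mitochondrial genome took 12.5 to 22.2% of TPM in controls, 7.81 to 13.7% in AP and 2.80 to 6.26% in SAP, and a change in so large a share moves the TPM of every other gene. Serum amyloid A transcripts went the other way, at 0.0508 to 1.14% in controls, 0.302 to 1.28% in AP and 7.37 to 12.4% in SAP. Summed TPM of 6 hepatocyte markers was 41422 to 51197 in controls, 40027 to 54760 in AP and 37714 to 49563 in SAP, where 3 of the 6 had fallen. Summed neutrophil markers (7 genes) were 2.30 to 27.5 TPM in controls, 3.42 to 7.40 in AP and 123 to 347 in SAP, where all 3 that could be tested had risen. Of 5 tested Kupffer cell markers 4 fell and 1 rose in SAP. The median sum of 5 cholangiocyte markers was 18.0 TPM in controls and 59.1 TPM in SAP. Only 2 of these could be tested, of which 1 rose in SAP and 1 did not pass. In whole liver, fewer cells of a type and less RNA per cell cannot be told apart, and the part of the cell marker shifts in the results below was not tested. The mitochondrial share was taken out in a refit, given beside the members whose call it changed. The serum amyloid A share was not taken out by itself.

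Tests were made with limma on log2(TPM + 1) over the 10555 genes whose mean reached 1 TPM, and a gene is said to have risen or fallen where its Benjamini-Hochberg adjusted p was under 0.05. Log2 changes are differences in mean log2(TPM + 1), carry their standard error (SE), and understate the change of low genes. Pdk3 lay under that minimum and was tested alone. Pdk4 passed it only through its level in SAP.

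In control livers the carrier subunits were highest, with Mpc1 at 116 ± 25.6 TPM (mean ± SD, n = 8 in this and every other group mean) and Mpc2 at 108 ± 23.3 TPM, and their ranges overlapped. Pdhb at 40.1 ± 8.60 TPM and Pdk2 at 34.9 ± 4.14 TPM came next and overlapped each other, but not the carriers. Pdp2 (20.3 ± 4.02 TPM) lay below every value of Pdk2, and Pdha1 (11.6 ± 1.43 TPM) below every value of Pdp2. Pdk1 and Dlat were low and overlapped, and Pdk4 and Pdk3 were below 1 TPM in all 8 controls.

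In SAP livers this order was different, for the kinases and for Pdp2. Pdk4, at 35.5 ± 22.0 TPM, had moved up among the enzyme subunits, overlapping both Pdhb and Pdha1. Pdk2 (5.05 ± 1.88 TPM) lay among Dlat and Pdp2, overlapping both. Pdp2 (at most 6.52 TPM) now lay below every value of Pdha1 (at least 9.74 TPM). The carrier subunits no longer overlapped, Mpc1 being above every value of Mpc2.

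PDK4 is the kinase known for its induction in starvation. Pdk4 was at 0.14, 0.36 and 0.65 TPM (lowest, median and highest) in controls, at 0.19, 0.34 and 0.51 TPM in AP, and at 4.94, 38.2 and 70.2 TPM in SAP. All 8 SAP livers lay above every AP and control liver, while AP and controls covered the same low range. The rise from controls to SAP was 4.38 on the log2 scale (SE 0.34, adjusted p = 2.70e-11), or 94.7-fold in mean TPM. It was the 47th largest rise of the 10555 genes tested, a set that Pdk4 entered only through its level in SAP. In limma with no minimum level the adjusted p of this rise was 4.41e-10. Against AP the rise was 4.40 (adjusted p = 2.85e-11). Between AP and controls the difference was -0.02 (SE 0.34, 95% interval -0.72 to 0.69, adjusted p = 0.987). That SE comes from 1 spread shared by the 3 groups, so the wide range of SAP enters it. Without SAP 21, 22, 24 and 25 the SE was 0.11, with the same difference.

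The SAP livers differed widely among themselves. Libraries 21, 22, 24 and 25 held 4.94 to 34.9 TPM of Pdk4 and libraries 26 to 29 held 41.5 to 70.2 TPM. These sets follow title numbers and were known from earlier results of these data to stand apart, so no test was made between them. With only libraries 21, 22, 24 and 25 in SAP the rise of Pdk4 over controls was 3.49 on the log2 scale, and with only 26 to 29 it was 5.27, past the test both ways. Leaving out single libraries gave 4.19 to 4.71. Summed markers of skeletal and heart muscle were at 0.05 to 0.45 TPM in SAP, against 0.37 to 11.6 TPM in controls and 0.31 to 25.4 TPM in AP. Summed adipocyte markers were at most 2.96 TPM in 7 of the 8 SAP livers and at 89.9 TPM in SAP 28, where Pdk4 was 48.9 TPM. The part of other tissues in the level of Pdk4 was not tested.

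**Figure D1:**
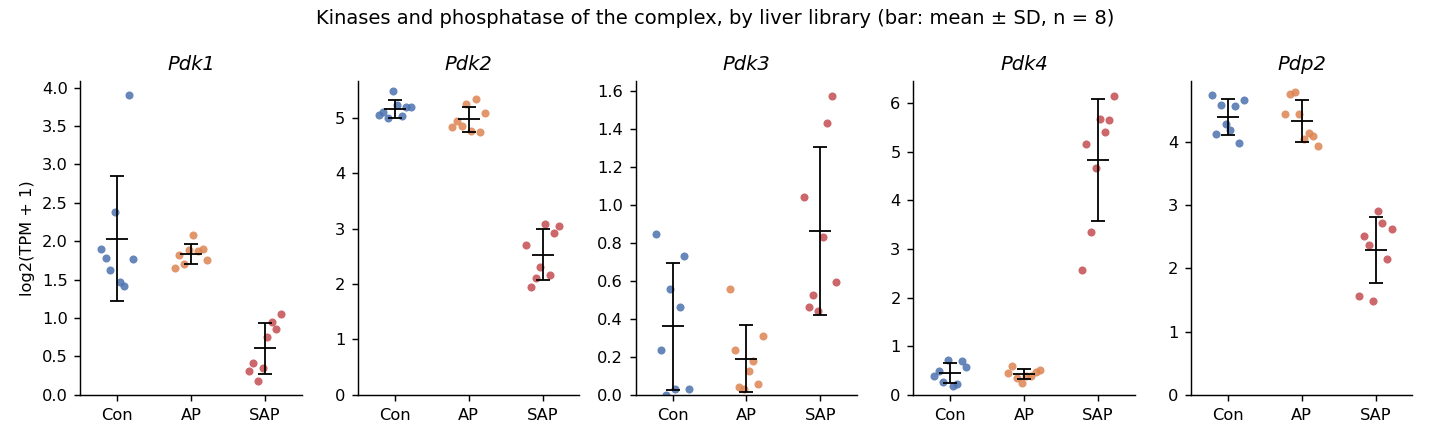
Levels of the 4 kinases and of the phosphatase subunit Pdp2 in each liver library, as log2(TPM + 1) on a separate axis for each gene, with the mean and SD of each group of 8. Pdk4 is near 0 in controls and AP and above every other library in all 8 SAP livers, while Pdk1, Pdk2 and Pdp2 are below every other library in SAP.

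PDK2 is the kinase most abundant in the resting liver. Pdk2 was at 30.8, 34.5 and 43.8 TPM (lowest, median and highest) in controls, at 25.8, 28.8 and 39.5 TPM in AP, and at 2.86, 4.75 and 7.51 TPM in SAP. Every SAP liver was below every other liver. Pdk2 fell by 2.63 on the log2 scale from controls to SAP (SE 0.15, adjusted p = 1.15e-13), which was 6.92-fold in mean TPM and the 227th largest fall of all genes tested. It fell by 2.44 from AP to SAP (adjusted p = 4.91e-13). In AP 5 of 8 livers were below every control, but the difference of -0.19 (SE 0.15, 95% interval -0.50 to 0.13) did not pass the test (adjusted p = 0.544).

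PDK1 is the isoform known as a target of hypoxia signalling. Pdk1 was at 1.67, 2.43 and 13.9 TPM in controls, at 2.15, 2.59 and 3.25 TPM in AP, and at 0.13, 0.51 and 1.07 TPM in SAP. The SAP livers lay below all others, and a single control, Con 9, lay far above the rest of its group. Pdk1 fell by 1.43 on the log2 scale from controls to SAP (SE 0.24, adjusted p = 1.14e-05), and by 1.16 without Con 9. In mean TPM the fall was 7.00-fold with that library and 4.44-fold without it. From AP to SAP it fell by 1.23 (adjusted p = 8.52e-05), and between AP and controls the difference was -0.20 (SE 0.24, adjusted p = 0.718).

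PDK3, an isoform best known from testis, had the lowest mean of the kinases in controls and AP, overlapping Pdk4 there. Pdk3 was at 0, 0.28 and 0.80 TPM in controls, at 0.02, 0.11 and 0.47 TPM in AP, and at 0.36, 0.65 and 1.98 TPM in SAP. In SAP 3 of 8 livers lay above every control and 5 of 8 above every AP liver, with the rest overlapping. The difference between SAP and controls had an unadjusted p = 0.0238 in an exact permutation test (two-sided), and that between SAP and AP p = 0.000622 in the same exact test, among 30 such tests of the 10 genes. In limma with no minimum level the adjusted p was 0.0160 for SAP against controls and 0.00181 for SAP against AP. Without libraries 26 to 29 the exact permutation p for SAP against controls was 0.224.

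Because the kinases were scaled alike, their TPM can be summed. The sum over the 4 isoforms was 39.5 ± 6.72 TPM in controls, 33.8 ± 5.05 TPM in AP and 42.0 ± 23.6 TPM in SAP, where it ran from 11.8 to 79.0 TPM. Group means of the sum thus lay within the spread of the SAP livers, with SAP libraries both below and above every control. Its makeup is a description, with no test of its own. Pdk2 made up 89.3 ± 8.02% of kinase TPM in controls and 90.7 ± 1.73% in AP, against 16.7 ± 13.6% in SAP. Pdk4 made up 0.912 ± 0.374% in controls, 1.06 ± 0.349% in AP and 79.0 ± 16.2% in SAP, from 41.9% to 90.7%. The share of Pdk1 was 9.06 ± 7.53%, 7.76 ± 1.58% and 1.34 ± 0.450% in the same order. In 7 of 8 SAP livers Pdk4 exceeded Pdk2, and in SAP 21 it was 0.888 times Pdk2.

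**Figure D2:**
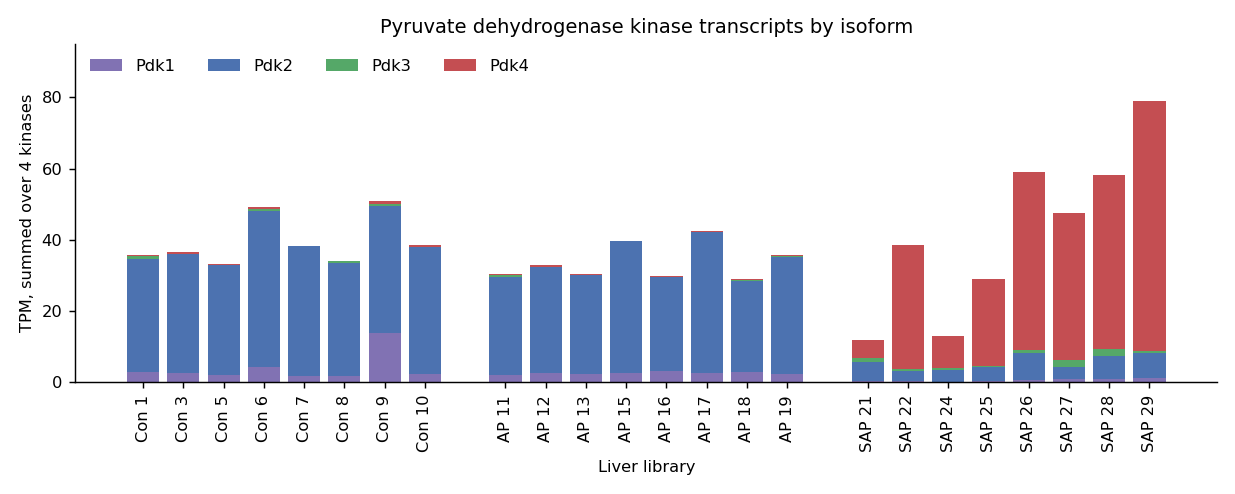
Summed TPM of the 4 pyruvate dehydrogenase kinases in each liver library, stacked by isoform. Pdk2 fills most of each bar in controls and AP, and Pdk4 fills 41.9% to 90.7% of it in SAP, where the total ranges from 11.8 to 79.0 TPM.

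PDP2 is the insulin-sensitive phosphatase of liver, which removes the kinases' phosphate. Pdp2 was at 14.8, 20.5 and 25.5 TPM in controls, at 14.2, 18.6 and 26.7 TPM in AP, and at 1.78, 4.41 and 6.52 TPM in SAP. SAP did not overlap with either group, and AP and controls covered the same range. Pdp2 fell by 2.10 on the log2 scale from controls to SAP (SE 0.19, adjusted p = 3.59e-10), 4.89-fold in mean TPM, and by 2.04 from AP to SAP (adjusted p = 7.09e-10). The AP difference was -0.06 (SE 0.19, adjusted p = 0.907). Summed kinase TPM per TPM of Pdp2 was 2.06 ± 0.721 in controls, 1.83 ± 0.528 in AP and 10.5 ± 5.14 in SAP, and Pdk2 alone per Pdp2 was 1.80 ± 0.483, 1.66 ± 0.494 and 1.45 ± 0.815. Of the other phosphatase genes, Pdp1 was below the minimum, at 0.171 ± 0.0837 TPM in controls and 1.05 ± 0.329 TPM in SAP. Its values went the other way from those of Pdp2, from 0.06 to 0.29 TPM in controls, 0.06 to 0.31 TPM in AP and 0.48 to 1.5 TPM in SAP. The ratios to Pdp2 leave Pdp1 out.

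The first enzyme of the complex, E1, joins an alpha subunit that carries the regulated phosphorylation sites (Pdha1) and a beta subunit (Pdhb). Pdha1 was at 9.40, 11.6 and 13.5 TPM in controls, at 10.5, 11.8 and 13.5 TPM in AP, and at 9.74, 15.5 and 27.3 TPM in SAP. In SAP 6 of 8 livers were above every control and the others overlapped. It rose by 0.42 on the log2 scale over controls (SE 0.14, adjusted p = 0.00804) and by 0.37 over AP (adjusted p = 0.0196). The rise over controls passed after rescaling without the 50 most abundant genes. It did not pass after quantile normalization (0.20, adjusted p = 0.141), after centring each library on its median (0.14, adjusted p = 0.236), after rescaling without mitochondrial transcripts (0.23, adjusted p = 0.124) or without SAP libraries 26 to 29 (0.12, adjusted p = 0.356). The rise over AP was lost under the same 4 settings (adjusted p = 0.0765, 0.244, 0.0695 and 0.616) and without AP 11, 12, 13 and 16 (adjusted p = 0.137). It was also lost without SAP 28 alone (adjusted p = 0.0503), the library with the highest Pdha1 and an adipocyte marker sum of 89.9 TPM, where the other SAP livers had at most 2.96 TPM. The part of that tissue signal was not tested.

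Pdhb was at 28.4, 40.3 and 55.8 TPM in controls, at 36.9, 41.5 and 46.1 TPM in AP, and at 31.0, 43.2 and 55.9 TPM in SAP, and the 3 groups covered the same range. Its difference between SAP and controls was 0.11 (SE 0.13, 95% interval -0.16 to 0.38, adjusted p = 0.448), and between AP and controls 0.07 (SE 0.13, adjusted p = 0.837). Pdhb per Pdha1 was 3.43 ± 0.385 in controls, 3.46 ± 0.287 in AP and 2.77 ± 0.672 in SAP. Of 50-base stretches of Pdha1 transcripts 12.9% also occur in other genes, chiefly Map3k15, which overlaps it on the opposite strand, and 11.4% of those of Pdhb, chiefly in Gm6123. Map3k15 was at most 0.06 TPM in SAP but 6.52 TPM in a single control, and Gm6123 was at most 0.14 TPM in any library.

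Dlat encodes the acetyltransferase E2, the core on which kinases and E1 sit. Dlat was at 1.33, 2.69 and 3.60 TPM in controls, at 2.32, 3.44 and 6.30 TPM in AP, and at 4.24, 5.79 and 9.46 TPM in SAP. All 8 SAP livers were above every control, and 4 of 8 AP livers were too. Dlat rose by 1.08 on the log2 scale from controls to SAP (SE 0.18, adjusted p = 9.46e-06), 2.57-fold in mean TPM. It rose by 0.61 from AP to SAP (adjusted p = 0.00421), a call that did not hold without SAP 26 to 29 (0.45, adjusted p = 0.0684) or without AP 11, 12, 13 and 16 (0.23, adjusted p = 0.311). The AP difference from controls was 0.46 (SE 0.18, 95% interval 0.09 to 0.84) and missed the threshold (adjusted p = 0.136). Pdha1 per Dlat was 5.01 ± 1.37 in controls, 3.46 ± 1.13 in AP and 2.59 ± 0.465 in SAP.

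**Figure D3:**
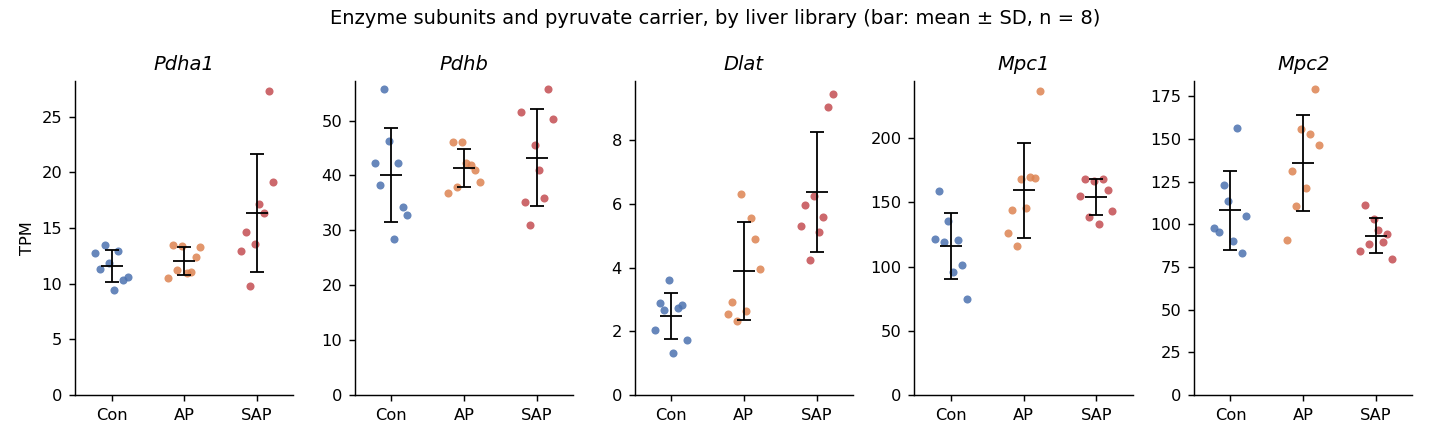
TPM of the enzyme subunits Pdha1, Pdhb and Dlat and of the carrier subunits Mpc1 and Mpc2 in each liver library, with the mean and SD of each group of 8. All 8 SAP livers exceed every control in Dlat, Pdhb covers the same range in the 3 groups, and Mpc1 and Mpc2 are spread widely in AP.

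The carrier subunits work only as a pair. Mpc1 was at 74.4, 120 and 159 TPM in controls, at 116, 157 and 236 TPM in AP, and at 133, 157 and 168 TPM in SAP. In AP and in SAP 4 of 8 livers each were above every control. The rise of Mpc1 in SAP over controls was 0.44 on the log2 scale (SE 0.14, adjusted p = 0.00663), but it did not pass after centring on medians (0.16, adjusted p = 0.244) or after rescaling without mitochondrial transcripts (0.23). It passed after rescaling without the 50 most abundant genes. In AP the difference was 0.46 (SE 0.14, 95% interval 0.17 to 0.74) and just missed the threshold (adjusted p = 0.0515). SAP and AP differed by -0.02 (adjusted p = 0.891), which became a rise of 0.23 after quantile normalization (adjusted p = 0.0463).

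Mpc2 was at 83.3, 101 and 157 TPM in controls, at 91.0, 139 and 179 TPM in AP, and at 79.9, 91.8 and 111 TPM in SAP. It was highest in AP, with wide overlap among all groups. Mpc2 fell by 0.52 from AP to SAP (SE 0.13, adjusted p = 0.00118), with 4 of 8 SAP livers below every AP liver, and this did not pass without AP 15, 17, 18 and 19 (-0.27, adjusted p = 0.109). Against controls the SAP difference was -0.19 (SE 0.13, 95% interval -0.46 to 0.08, adjusted p = 0.197), and it passed as a fall after centring on medians (-0.47, adjusted p = 0.0125) or without mitochondrial transcripts (-0.39, adjusted p = 0.00767). The AP difference of 0.33 (SE 0.13) did not pass (adjusted p = 0.146). Mpc1 per Mpc2 was 1.10 ± 0.303 in controls, 1.19 ± 0.216 in AP and 1.66 ± 0.174 in SAP. The level of Mpc1 is uncertain, since 26.3% of its 50-base stretches are shared, chiefly with 4930506C21Rik on the opposite strand (at most 1.79 TPM), and the sources used here do not say whether reads were counted by strand.

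Within AP, libraries 11, 12, 13 and 16 and libraries 15, 17, 18 and 19 did not overlap in 3 of the 10 genes, against 14.9% of all genes tested. Dlat was at 2.32 to 2.91 TPM in the first set and 3.96 to 6.30 TPM in the second, Mpc1 at 116 to 145 and 168 to 236 TPM, and Mpc2 at 91.0 to 131 and 146 to 179 TPM. In SAP the sets 21, 22, 24 and 25 against 26 to 29 also did not overlap in 3 of 10, against 33.4% of all genes tested, a share near that of the members. The 3 were Pdk4, Pdk1 (0.13 to 0.33 against 0.68 to 1.07 TPM) and Pdha1 (9.74 to 14.7 against 16.4 to 27.3 TPM). These are descriptions of sets known to stand apart, without a test.

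Across the 9 tested genes, SAP against controls gave 4 that rose (Pdk4, Pdha1, Dlat, Mpc1) and 3 that fell (Pdk1, Pdk2, Pdp2). Of all genes tested 44.2% rose and 29.8% fell in that comparison, so passing the test did not by itself set these genes apart. That split depended on scaling: 4661 rose and 3147 fell as deposited, against 3888 and 4300 after centring on medians and 4183 and 3808 without mitochondrial transcripts. Groups did not overlap in 5 of the 10 genes (Pdk1, Pdk2, Pdk4, Pdp2, Dlat), against 37.8% of all genes tested. By size of change, Pdk4 was among the 5.80% of genes that rose by at least 2 on the log2 scale. It passed the minimum level only through SAP. Pdk2 and Pdp2 were among the 4.43% that fell by at least 2. The median change of the 9 was 0.11, against 0.21 over all genes tested.

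In SAP against AP 3 rose (Pdk4, Pdha1, Dlat) and 4 fell (Pdk1, Pdk2, Pdp2, Mpc2), against 41.0% and 31.0% of all genes tested, and 4 of the 10 did not overlap, against 37.3%. In AP against controls none of the 9 passed limma's test, against 4.35% of all genes that rose and 1.13% that fell, and none was free of overlap, against 0.748%. The 578 genes behind those shares became 179 to 352 when 1 library was left out, be it AP 15, 17, 18 or 19 or Con 1, 7 or 10. Without any other single library the count was 443 to 840. An unadjusted p under 0.05 was reached there by 3 genes (Dlat, Mpc1 and Mpc2), in limma and in the exact permutation test alike. The comparisons of AP and of SAP with controls share the same control libraries.

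**Figure D4:**
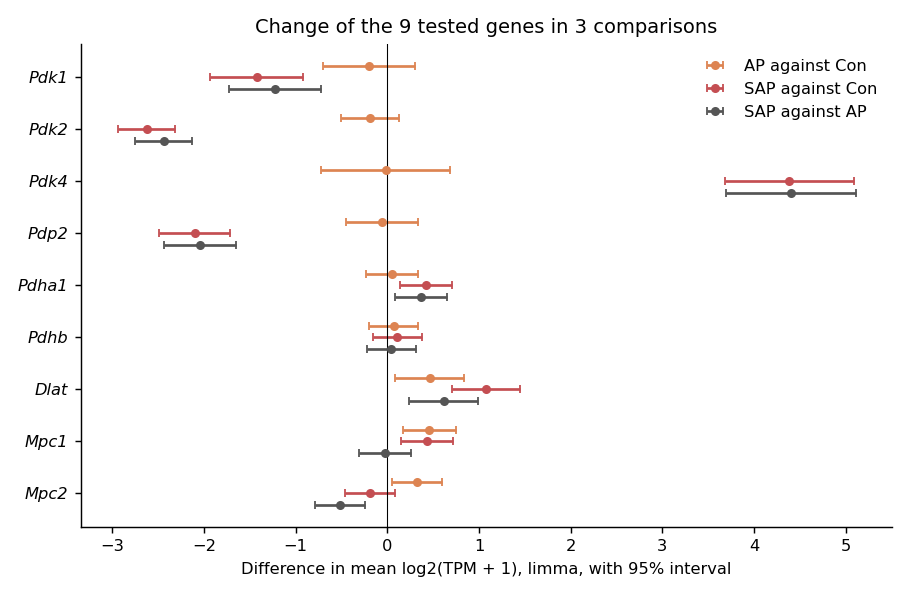
Difference in mean log2(TPM + 1) of the 9 tested genes in the 3 comparisons, with the 95% interval from limma. Pdk4 lies at 4.38 and 4.40 in the comparisons of SAP with controls and with AP, Pdk2 at -2.63 and -2.44, and the AP intervals of the 4 kinase and phosphatase genes shown all include 0.

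Other genes of the pathway were taken from lists chosen with earlier results of these data known, and are given as counts, to be read against the 44.2% of all genes that rose and the 29.8% that fell in SAP, and the 4.35% and 1.13% in AP. Such counts are descriptions, and no list was tested against other genes. Of 5 further genes of the complex 2 were high enough to test, and both rose in SAP and neither in AP. Dld, the E3 subunit, was at 10.5 ± 2.27 TPM in controls and 39.6 ± 12.0 TPM in SAP (log2 change 1.80, adjusted p = 2.94e-10). Pdhx, the E3 binding protein, was at 2.55 ± 0.542 and 7.64 ± 2.34 TPM (1.25, adjusted p = 8.62e-08). Dlat, Pdhx and Dld thus each rose, while Pdhb did not pass.

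Of 6 genes that supply lipoate and thiamine cofactors, none passed in AP, and in SAP 2 rose and 2 fell (median change -0.05). Mecr, of mitochondrial fatty acid synthesis, rose from 6.06 ± 2.45 to 15.3 ± 2.81 TPM, and Lias, the lipoate synthase, from 3.83 ± 0.703 to 8.95 ± 3.29 TPM. The related branched-chain ketoacid dehydrogenase complex had 1 of 5 genes rising and 4 falling in SAP (44.2% and 29.8% of all genes), and none passing in AP. The 4 falls became 2 without SAP 21, 22, 24 and 25. Its phosphatase Ppm1k fell from 4.64 ± 1.08 to 0.765 ± 0.442 TPM and its E1 alpha subunit Bckdha from 147 ± 13.0 to 88.2 ± 11.9 TPM. Its E1 beta subunit Bckdhb rose from 49.6 ± 12.0 to 74.5 ± 13.3 TPM, a call lost after centring on medians (0.32, adjusted p = 0.067).

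Of 13 tested genes that make pyruvate or use it elsewhere, 2 rose in AP and none fell, and in SAP 8 rose and 2 fell (medians 0.24 and 0.84, against 0.06 and 0.21 over all genes). Ldha, the lactate dehydrogenase A subunit, was at 101 ± 36.7 TPM in controls, 245 ± 73.9 TPM in AP and 2953 ± 370 TPM in SAP, a log2 change of 1.31 in AP (adjusted p = 0.000494) and 4.94 in SAP (adjusted p = 8.51e-17). Pcx, the pyruvate carboxylase that feeds gluconeogenesis, was at 46.1 ± 7.39, 73.6 ± 11.3 and 145 ± 22.0 TPM, and passed in both (adjusted p = 0.00281 and 5.74e-12). Slc16a1, the monocarboxylate transporter MCT1, was at 2.32 ± 0.590, 2.90 ± 0.531 and 35.5 ± 9.47 TPM and passed in SAP (adjusted p = 3.43e-16) but not in AP (adjusted p = 0.382). In AP none of the 13 passed when libraries 15, 17, 18 and 19 were left out, where 11 of all 10601 genes tested did.

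Of 6 genes that use acetyl-CoA near the complex, 2 rose and 1 fell in AP, and in SAP 1 rose and 3 fell. The 3 falls became 1 without SAP 21, 22, 24 and 25. Without AP 15, 17, 18 and 19 none of the 6 passed in AP, where 11 of all 10601 genes tested did. Acss2, the cytosolic acetyl-CoA synthetase, was at 14.0 ± 3.05 TPM in controls, 9.99 ± 2.17 TPM in AP and 1.31 ± 0.247 TPM in SAP, with a fall in both, though the fall in AP was lost with no minimum level, with a pseudocount of 0.1, in a fit of the 2 groups alone and without either set of 4 AP libraries (adjusted p from 0.0631 to 0.377). Acat1, the mitochondrial thiolase, was at 98.8 ± 15.8, 150 ± 14.5 and 132 ± 33.6 TPM and rose in both, but in SAP not after centring on medians (0.11, adjusted p = 0.342) or without mitochondrial transcripts (0.18, adjusted p = 0.197). Its rise in SAP was also lost without SAP 26 to 29, where none of the 6 rose.

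Of 9 tested regulators linked to Pdk genes in the literature, none passed in AP, and 6 rose and 2 fell in SAP, where 44.2% and 29.8% of all genes did. With array weights 2 of the 9 rose in AP, where 1252 of all 10555 genes did. In a fit of the 2 groups alone 1 of the 9 rose in AP, where 484 of all 10555 did. Hif1a, the oxygen-regulated factor, was at 1.21 ± 0.126 TPM in controls and 26.9 ± 9.51 TPM in SAP (log2 change 3.58). Esrra, an orphan receptor of mitochondrial genes, fell from 18.2 ± 4.79 to 4.33 ± 1.63 TPM, and Nr0b2, the corepressor SHP, from 35.6 ± 11.5 to 0.427 ± 0.273 TPM. Centring on medians left 3 rises and 3 falls.

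Of 14 other PPAR-alpha targets, 8 rose and none fell in AP (median 0.82). In SAP 13 rose and 1 fell (median 2.27). Pdk4, also such a target, was at most 0.65 TPM in controls and 0.51 TPM in AP. The part of PPAR-alpha in the level of Pdk4 was not tested. Slc25a20, the carnitine carrier, was at 19.3 ± 3.60, 34.7 ± 5.50 and 46.7 ± 3.69 TPM in controls, AP and SAP. Plin2, a lipid droplet protein, was at 62.2 ± 11.8, 111 ± 22.3 and 1056 ± 284 TPM. The AP count was 3 of 14 when libraries 15, 17, 18 and 19 were left out, where 11 of all 10601 genes tested passed.

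**Figure D5:**
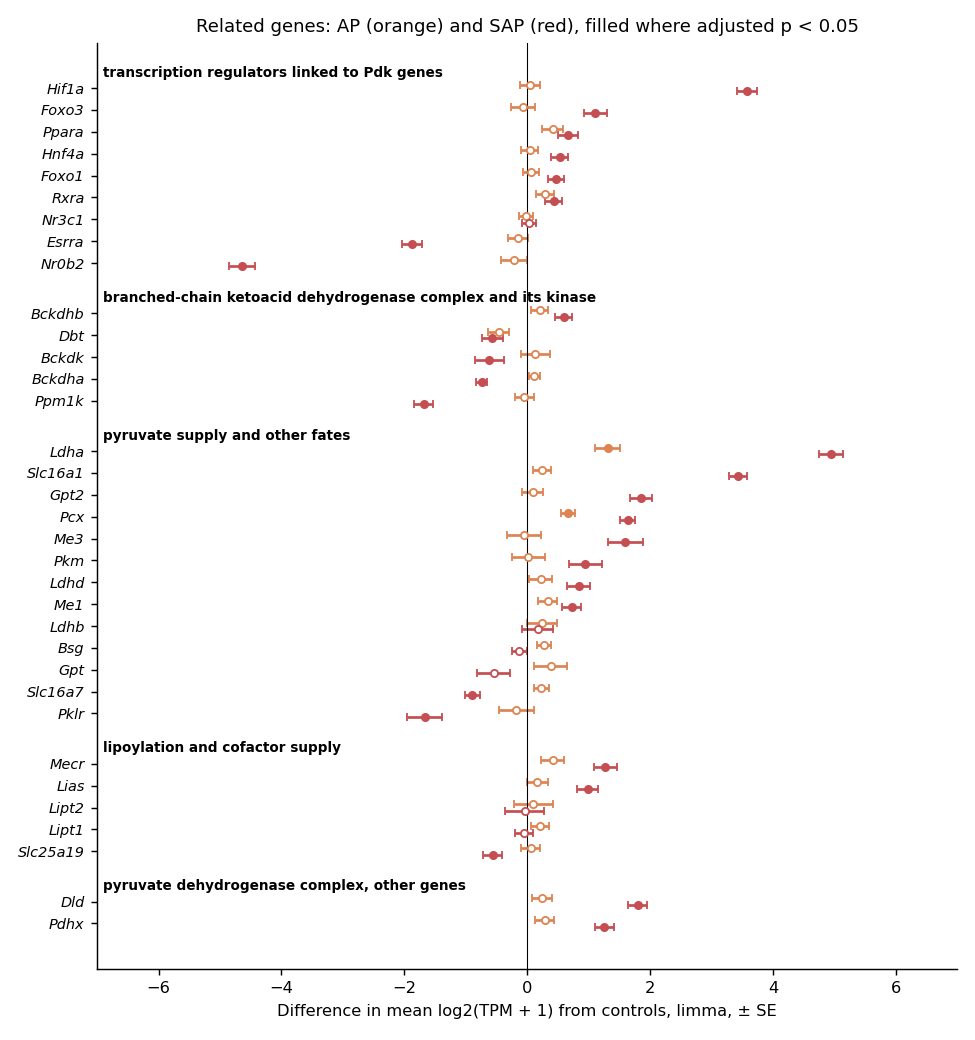
Difference in mean log2(TPM + 1) from controls, with its SE, for tested genes of 5 pathway lists (1 gene of the lipoylation list is not shown), in AP (orange) and SAP (red), filled where the adjusted p was under 0.05. Ldha lies at 1.31 in AP and 4.94 in SAP, Dld and Pdhx are filled in SAP and open in AP, and no regulator is filled in AP.

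The genes whose levels followed these members most closely over the 24 libraries were found by Pearson r of log2(TPM + 1), as a description, since all points share the separation of SAP from the rest. For Pdk4 they were Rtn4rl2 (r = 0.987), Lyve1 (0.983) and Trib2 (0.983), all below 1 TPM in every control and AP liver. Lyve1, a marker of sinusoidal endothelium, was at 0.301 ± 0.158 TPM in controls and 11.2 ± 5.13 TPM in SAP, while the sum of 6 markers of that cell type covered 26.5 to 62.3 TPM in controls and 14.7 to 64.7 TPM in SAP. Of the 5 that could be tested, Lyve1 included, 2 rose and 2 fell in SAP. The part of these cells in the level of Pdk4 was not tested. For Pdk2 they were Mmaa (0.985), Akr1e1 (0.983) and Shmt2 (0.983). For Pdp2 they were Rpl14 (0.969), Pfdn6 (0.967) and Pet100 (0.966).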

How the data were processed

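Livers had been flash frozen and RNA extracted with Trizol, with standard Illumina library preparation, per the labels' protocols. The authors deposited 1 table of TPM for 24 libraries. The unit was read from the values: columns sum to nearly the same total, and the median smallest value above 0 was 0.2 TPM over 3243 genes of 300 to 600 bases and 0.02 TPM over 3545 genes of 3000 to 6000 bases. The submitters' processing notes name edgeR alone, without a version. For the aligner, build and counting, the sources used here give nothing. TPM keep no counts, so no count test or counting interval was possible, and a rise of abundant transcripts lowers all other values.

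Members and gene lists were chosen with earlier results of these data known. Values were taken as log2(TPM + 1), and 1 model over the 3 groups (limma 3.58.1, R 4.3.3, with its intensity trend, residual df 21) covered the 24 libraries, adjusting over the 10555 genes whose mean reached 1 TPM. The 44981 others were left out. The fit was run on simulated data with few genes changed and independent noise. That setting is unlike SAP, where most genes passed, so it says nothing of error rates there. Single members were also compared by exact permutation over all arrangements of 8 against 8 libraries, two-sided and unadjusted (30 tests, smallest possible p = 0.000155). Named beside the members are at most 3 genes per pathway list, those of smallest p over the 3 groups, and the 3 genes most like each of the 3 members of widest span. Some of these genes are not reported here, but stayed in all counts. Pdp1, Map3k15, Gm6123 and 4930506C21Rik were named after their values were seen. Alternatives changed normalization, filter, pseudocount, model or libraries. Of gene names 99.8% occur in GENCODE M21, used for shared 50-base stretches. Promoters came from RefSeq. The groups share no replicate numbers.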

Additional observations from a re-analysis of the deposited data

Results flagged for a closer look

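Of 30 sets of 8 values (10 genes in 3 groups), 3 held a library further from the rest than the 95% limit for 8 values allows (a gap to the nearest value above 0.526 of the range), where chance gives about 1 in 20. Pdk1 in Con 9 was 13.92 TPM, the next control being at 4.23 TPM. Pdk2 in Con 6 was 43.82 TPM, the next being at 36.38 TPM. Mpc1 in AP 19 was 236.46 TPM, the next AP liver being at 169.95 TPM.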

How the results depend on the processing

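The 27 changes of the 9 tested genes were refitted under 15 other settings and without each of the 24 libraries in turn. Of these 1053 alternatives 1 was reversed, 15 lost the call and 13 gained one. Some of them left out only libraries of a group outside the comparison. Those can alter the SE and adjusted p but not the log2 change, so the total overstates how much was varied. Pdk1, Pdk2, Pdk4 and Pdp2 kept their calls in SAP against controls and against AP in all of them, and Dlat in SAP against controls. The number of members called was 6 to 8 in SAP against controls and 5 to 8 in SAP against AP (7 in each as reported), and 7 and 6 to 7 without single libraries.

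In AP against controls the count of 0 became 1 (Mpc1) after centring on medians, with at least 1 TPM in 8 libraries as the filter, with array weights and without Con 3 and 9. It became 3 (Dlat, Mpc1, Mpc2) without AP 11, 12, 13 and 16, and was 0 to 1 without single libraries, being 1 without Con 3, Con 6, AP 11 or AP 13. Mpc1 in SAP against AP turned from -0.02 to 0.23 after quantile normalization. The cause was not tested. Over all genes AP against controls gave 578 calls, from 11 without AP 15, 17, 18 and 19 to 1458 with array weights. Of these 459 rose and 119 fell, against 388 and 265 after quantile normalization, 196 and 215 without the 50 most abundant genes and 215 and 172 without mitochondrial transcripts. The median change of all genes in SAP against controls was 0.21, -0.06 after centring and 0.03 after quantile normalization. In the pathway lists, the 2 falls among genes that make or use pyruvate in SAP became 4 after centring, and the 2 falls among cofactor genes became 1 without SAP 21, 22, 24 and 25 and 3 after centring or without SAP 26 to 29. No paired analysis was possible because the groups share no replicate numbers. Depth is unknown from TPM, so precision at the low levels of Pdk3 and of Pdk4 in controls could not be stated.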
